A study of Mus musculus with 8 samples.

Results

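The cytosolic ribosomal proteins are the protein components of the ribosome that works in the cytoplasm, and their genes were followed here in activated muscle stem cells (ASCs) of wild-type and mfn2-/- mice, Mfn2 encoding the mitochondrial fusion protein mitofusin 2. Genes were taken by symbol from the deposited table, as Rpl or Rps followed by a number with an optional letter, together with Rplp0, Rplp1, Rplp2 and Rpsa, without pseudogenes. This gave 82 of 18877 genes, 50 of the large and 32 of the small subunit. RNA was sequenced from 4 wild-type and 4 mfn2-/- libraries of ASCs sorted from the tibialis anterior muscle of adult mice 2 days after injury with BaCl2. The mice carried mito-Dendra2, a mitochondrial fluorescent reporter switched on by the Pax7-Cre(ERT2) driver in muscle stem cells, and received tamoxifen at 75 mg/kg for 5 days. In mfn2-/- mice the same driver also deleted a floxed Mfn2 allele, so deletion was restricted to cells that had expressed Pax7. The sort kept CD34-, Dendra2+ and DAPI- cells. The sources used here do not say whether a library came from 1 animal or from several, so the p-values measure the spread between libraries.

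Each ribosome is built from a small subunit, which reads the mRNA, and a large subunit, which joins the amino acids, and every ribosomal protein enters it in a fixed number of copies. The mRNAs of these proteins share a run of C and T bases at their start, the terminal oligopyrimidine (TOP) motif, through which the mTORC1 pathway and the binding protein Larp1 set their translation and stability. Stem cells that leave quiescence are known to increase ribosome production as they grow and enter the cell cycle.

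The longest runs of C and T near the start of genes on which the results turn are shown first. Among the features searched, a C and T run of at least 8 bases was found in the most genes of the family. RefSeq promoter records of the mouse build GRCm38.p6 matched 61 of the 82 genes. In the window from 30 bases before to 50 bases after the annotated start, 46 of 61 (75.4%) held an unbroken run of at least 8 C or T bases on the gene's strand, against 28.9% of 27025 mouse promoters. A run of at least 10 was found in 62.3% of the ribosomal protein genes and in 13.9% of all promoters. The median longest run was 10 bases for these genes and 6 for all promoters. The run covered the annotated start base itself in 13 of the 61 genes, and elsewhere it lay before or after it, so these runs need not be the TOP motif at the first base of an mRNA. In the 9 windows of 30 bases given here, which are placed around the run and need not hold the start, capitals mark the longest run of C and T in the searched window, and a run that reaches the window's end may continue. The first 4 genes were higher in mfn2-/- ASCs, Rpsa had the most reads, Rplp0 and Rps24 differed between kinds of library, and Rpl7l1 and Rpl22l1 are paralogs.
Rpl5 (chr5:107900498-107900527, plus strand): cctacagccaCTCTTTCTCacgtcgcttgc
Rpl6 (chr5:121204521-121204550, plus strand): cgctgccttagTTCTCTTTCCCgtcttgca
Rplp2 (chr7:141447636-141447665, plus strand): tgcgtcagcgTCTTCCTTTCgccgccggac
Rpl26 (chr11:68901579-68901608, plus strand): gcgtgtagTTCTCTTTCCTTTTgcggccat
Rpsa (chr9:120127775-120127804, plus strand): ccggccgcccgTCCTTTCgcgctacccggg
Rplp0 (chr5:115559467-115559496, plus strand): ggaccgcctggTTCTCCTataaaaggcaca
Rps24 (chr14:24490698-24490727, plus strand): ttggtcggcagtgagcggTCCTCTTTTCCT
Rpl7l1 (chr17:46782669-46782698, minus strand): tcgaggcgggccTCTCTaccccgcccggtg
Rpl22l1 (chr3:28805499-28805528, plus strand): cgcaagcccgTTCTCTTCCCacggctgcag

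Among the printed genes, the runs of Rpl5, Rplp2 and Rpl22l1 were 9, 10 and 10 bases long. The runs of Rpl6, Rpl26 and Rps24 were longer, with 11, 14 and 12 bases, whereas those of Rpsa and Rplp0 had 7 and that of Rpl7l1 had 5. Counted from the annotated start base as 0, the runs began at 38 in Rps24, 31 in Rpl6, 21 in Rpl26, 20 in Rpsa, 11 in Rplp0 and 1 in Rpl22l1, and before the start at -5 in Rplp2, -20 in Rpl5 and -30 in Rpl7l1. Among these 9 genes, the run of Rplp2 was the one that covered the start base. In the whole 300-base records, searched on both strands, the letters CGGAAG, the core bound by ETS factors, were present in 65.6% of ribosomal protein genes and in 17.2% of all promoters. The letters GGGCGG of the SP1 box were present in 60.7% and 35.9%, the letters ATGGCG found in YY1 sites in 29.5% and 9.24%, and the TATA box letters TATAAA in 9.84% and 14.2%. These are matches of letters, not measured binding.

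Total depth was 1880464 to 7508215 reads per library, of which 33332 to 126343 fell on ribosomal protein genes. Mfn2 measured 243, 245, 202 and 228 normalized reads in wild-type replicates 1 to 4 and 104, 118, 172 and 110.0 in mfn2-/- replicates 1 to 4, with no overlap (exact permutation p = 0.0286, the smallest that 4 against 4 allows; limma adjusted p = 0.0848). The 8 muscle stem cell markers summed to 0.188 to 0.311% of normalized reads in wild-type and 0.632 to 0.971% in mfn2-/- libraries. Of the 8, 4 (Myod1, Vcam1, Sdc4 and Des) were called higher by limma and 0 lower, Pax7 and Myf5 had log2 changes of 0.10 and 0.07, and Itga7 and Chrdl2 had negative ones (-0.87 and -0.29, adjusted p = 0.11 and 0.637), with 1 of the 8 called lower by DESeq2. The sums of fibroadipogenic and of tenocyte markers moved the opposite way. The 12 fibroadipogenic markers summed to 4.73 to 6.41% in wild-type and 0.155 to 0.258% in mfn2-/- libraries. Of these 12, 9 were lower by limma and 2 had a positive log2 change. The 10 tenocyte markers summed to 1.55 to 2.02% and 0.300 to 1.10% (9 of 10 lower, 0 with a positive change). The 6 mural cell markers summed to 0.0490 to 0.0775% in wild-type and 0.0203 to 0.0325% in mfn2-/- libraries, without overlap (2 of 5 tested lower). Macrophage markers summed to at most 0.00463% in any library and neutrophil markers to at most 0.000752%, with Ly6g listed at 0 in all libraries but wild-type replicate 4. In bulk samples, fewer cells of a type and less RNA per cell cannot be told apart. Libraries further fell into 2 kinds. Reads of 4 Y-linked genes numbered 807 to 2336 in wild-type replicates 3 and 4 and in replicates 1 and 2 of mfn2-/-, and 0 in the other 4 libraries. The sources used here give neither sex nor preparation day, which cannot be told apart from this split. The library of mfn2-/- replicate 4 stood apart with 9646 genes detected and 6.03% of its normalized reads on the small nuclear RNA Rn7sk.

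Ribosomal protein mRNAs made up a larger part of the sequenced RNA in mfn2-/- ASCs than in wild-type ASCs. They took 1.77, 1.77, 1.19 and 1.10% of normalized reads in wild-type replicates 1 to 4 and 1.88, 1.80, 2.50 and 2.53% in mfn2-/- replicates 1 to 4, that is 1.46% ± 0.362 (SD, n = 4) and 2.18% ± 0.393 (SD, n = 4). Every mfn2-/- library lay above every wild-type library, by a margin that was small between mfn2-/- replicate 2 and wild-type replicate 1. Large subunit genes took 0.989, 0.976, 0.680 and 0.635% in the wild-type libraries and 1.15, 1.10, 1.41 and 1.44% in the mfn2-/- libraries. Small subunit genes took 0.784, 0.789, 0.507 and 0.467% and 0.724, 0.699, 1.09 and 1.09%. The large subunit groups did not overlap, while mfn2-/- replicates 1 and 2 lay below wild-type replicates 1 and 2 for the small subunit. The ratio of large to small subunit reads was 1.26, 1.24, 1.34 and 1.36 in wild-type libraries and 1.59, 1.57, 1.29 and 1.32 in mfn2-/- libraries, so mfn2-/- replicates 1 and 2 stood above the other 6 libraries.

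**Figure D1:**
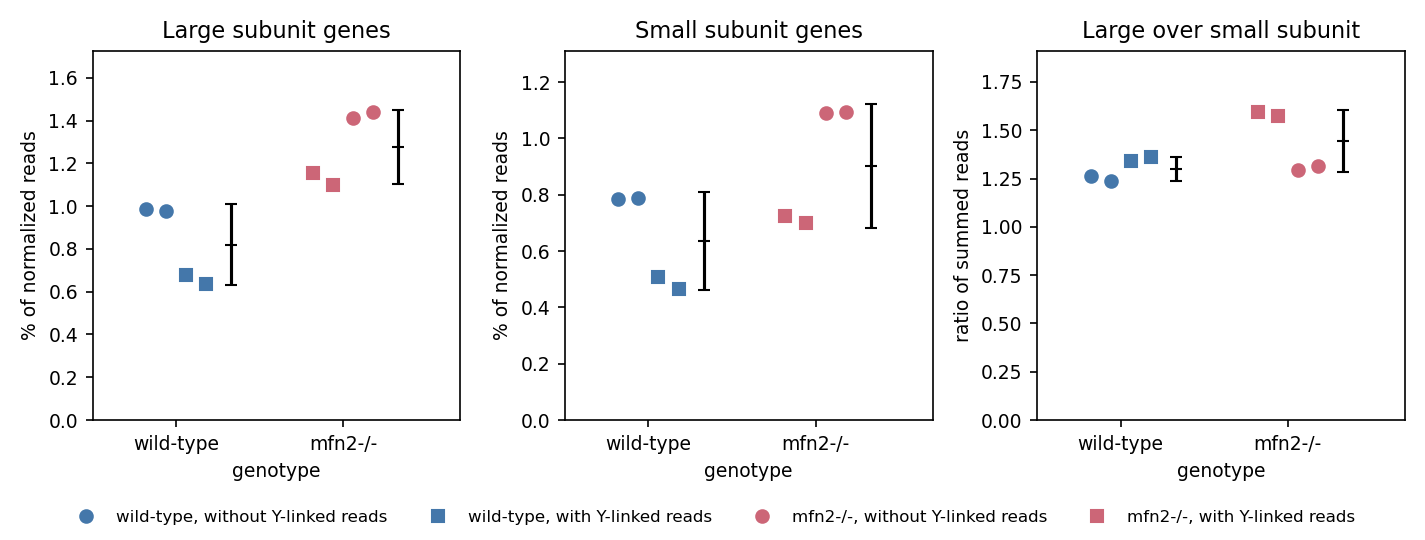
Each point is 1 library, plotted as the percentage of normalized reads on large subunit genes (left), on small subunit genes (middle) and as the ratio of both sums (right), with the mean and SD of each genotype in black (n = 4) and marker shape for the presence of Y-linked reads. The mfn2-/- libraries were higher within each kind of library for both subunits, and 2 mfn2-/- libraries had ratios of 1.57 and 1.59.

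Of the 82 genes, 76 had a mean of at least 10 normalized reads and were tested one by one with limma. In mfn2-/- ASCs, 6 genes rose at an adjusted p under 0.05 and 0 fell. The share called higher was 7.89%, against 3.99% of all 11754 genes tested, of which 6.36% were called lower. Among highly counted genes the share was not raised, since 5 of 35 ribosomal protein genes (14.3%) with a mean of at least 500 were called higher, against 19.2% of the 1531 genes at that level. The direction was more uniform than the calls. A positive log2 change was found for 63 of 76 genes, against 44.2% of all genes, and for 34 of the 35 highly counted ones, against 64.5% of highly counted genes. The median log2 change was 0.48 over the 76 genes, with -0.16 over all genes tested, and 0.51 over the 35, with 0.27 over highly counted genes. At an unadjusted p under 0.05, 19 genes were higher, against 10.4% of all genes, and 0 were lower, and edgeR (4.26% of all genes higher) and DESeq2 (5.51%) each called 6 higher and 0 lower. The number of calls was not stable. Leaving out wild-type replicates 1 to 4 in turn gave 3, 3, 1 and 2 genes, and leaving out mfn2-/- replicates 1 to 4 gave 1, 2, 2 and 3. In the same order, these fits called 454, 420, 235 and 263, then 273, 260, 312 and 470, of all 11754 genes higher. With any library left out, the share of the 76 genes called was thus close to that of all genes. The number of calls was 13 with upper-quartile scaling (against 7.19% of all genes) and 27 with library weights (against 11.9% of all genes). In each of these fits 0 were called lower.

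Of the 6 genes called higher, the 5 with a mean of at least 500 normalized reads were Rpl5, Rpl6, Rplp2, Rpl26 and Rpl8, all called by limma, edgeR and DESeq2 alike. Values per library are normalized reads, the reads of a gene divided by the size factor of the library, and are not divided by gene length. Rpl5 (ENSMUSG00000058558.12, chr5:107900502-107909005, plus strand in GENCODE M21, GRCm38) encodes the large subunit protein that carries 5S rRNA together with Rpl11. It measured 3534, 3665, 2436 and 2327 in wild-type replicates 1 to 4 and 5779, 6969.8, 5639 and 8008 in mfn2-/- replicates 1 to 4. The lowest mfn2-/- library was well above the highest wild-type library, and the means were 2990.4 ± 707 in wild-type and 6599 ± 1113 in mfn2-/- ASCs (SD, n = 4 each; log2 change 1.16, SE 0.21, adjusted p = 0.00376 by limma). Rplp2 (ENSMUSG00000025508.13, chr7:141447370-141451585, plus strand) encodes a protein of the stalk, the arm of the large subunit that recruits elongation factors. It measured 639, 869, 898 and 915 in wild-type replicates 1 to 4 and 2802, 2310.1, 1063 and 1249.8 in mfn2-/- replicates 1 to 4. Groups did not overlap, with mfn2-/- replicates 1 and 2 far above replicates 3 and 4, which lay closer to wild-type (log2 change 1.06, SE 0.29, adjusted p = 0.0338 by limma). Rpl26 (ENSMUSG00000060938.14, chr11:68901583-68906989, plus strand), a large subunit protein also known to bind p53 mRNA, had the highest mean per kb of transcript of the whole family. It measured 3047, 2816, 2194 and 1791 in wild-type replicates 1 to 4 and 4117, 3064, 4219 and 6161 in mfn2-/- replicates 1 to 4. Here mfn2-/- replicate 2 was only just above wild-type replicate 1, and the means were 2462 ± 574 in wild-type and 4390.2 ± 1291 in mfn2-/- ASCs (log2 change 0.82, SE 0.24, adjusted p = 0.0446 by limma).

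Rpl6 (ENSMUSG00000029614.13, chr5:121204481-121209241, plus strand), another large subunit protein, measured 557, 1105, 683 and 529 in wild-type replicates 1 to 4 and 1145, 1272, 1266 and 1343 in mfn2-/- replicates 1 to 4. The mfn2-/- libraries lay close together, and wild-type replicate 2 stood near them (log2 change 0.87, SE 0.23, adjusted p = 0.0312 by limma). Rpl8 (ENSMUSG00000003970.9, chr15:76904078-76906314, plus strand), whose protein sits near the site where peptide bonds form, measured 1137, 1353, 738 and 841 in wild-type replicates 1 to 4 and 1451, 1557, 1595 and 2164 in mfn2-/- replicates 1 to 4. The groups were separated by less than the spread within either one (log2 change 0.76, SE 0.22, adjusted p = 0.0468 by limma). Rpl18, another large subunit gene, named after its values were seen, also showed no overlap and was not called (log2 change 0.59, SE 0.20, adjusted p = 0.0861). Complete separation of the groups in the higher direction was thus found for 7 of 76 genes (9.21%), close to the 7.36% of all genes.

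**Figure D2:**
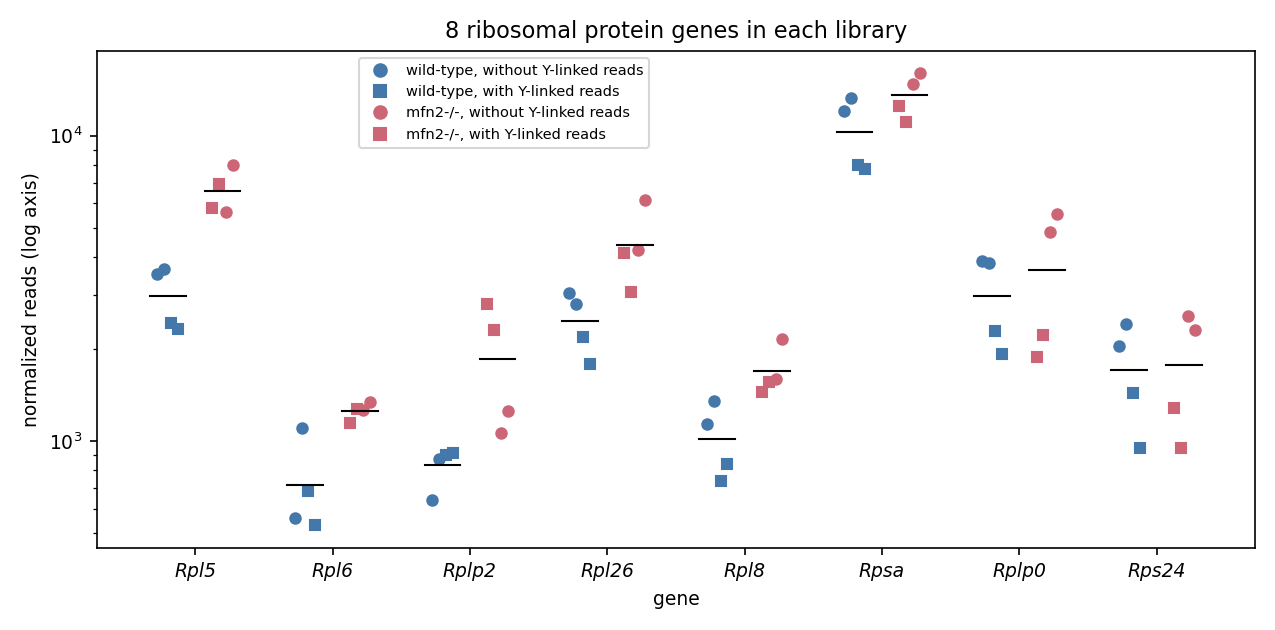
Normalized reads per library (log axis) for the 5 genes with a mean of at least 500 called higher in mfn2-/- ASCs and for Rpsa, Rplp0 and Rps24, each point 1 library and each black line a group mean (n = 4). The 5 called genes showed no overlap between genotypes, whereas Rpsa, Rplp0 and Rps24 did. Within each genotype, Rpsa, Rplp0 and Rps24 separated by the presence of Y-linked reads, as did the called genes Rpl26 and Rpl8.

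Apart from Rpl5 and Rpl26, the 5 genes of each subunit with the most reads did not pass the test. Rpsa, the small subunit protein also known as the laminin receptor, took 15.2 to 17.8% of all ribosomal protein reads. It measured 12092, 13316, 7993 and 7807 in wild-type replicates 1 to 4 and 12544, 11049, 14801 and 16009 in mfn2-/- replicates 1 to 4, with overlap between genotypes (log2 change 0.43, SE 0.24, adjusted p = 0.300 by limma). Rpl13a, also known for silencing inflammatory mRNAs, measured 4159.6, 4405, 2615 and 2154 in wild-type replicates 1 to 4 and 5975, 4943, 4401 and 5215 in mfn2-/- replicates 1 to 4. Only mfn2-/- replicate 3 lay below the highest wild-type library (4401 against 4405), yet it did not pass (log2 change 0.68, SE 0.24, adjusted p = 0.0937). Overlap between genotypes was also found for Rps4x (log2 change 0.69, SE 0.25, adjusted p = 0.10), Rpl4 (log2 change 0.49, SE 0.22, adjusted p = 0.185), Rps3a (log2 change 0.37, SE 0.21, adjusted p = 0.292) and Rps2 (log2 change 0.51, SE 0.40, adjusted p = 0.469). By limma the stalk base Rplp0 had a log2 change of 0.19 (SE 0.35, adjusted p = 0.778) and Rps24 of 0.028 (SE 0.34, adjusted p = 0.970). Of the stalk genes, whose proteins work as a unit, Rplp2 had a log2 change of 1.06, Rplp1 of 0.35 and Rplp0 of 0.19, and the differences between them were not tested.

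**Figure D3:**
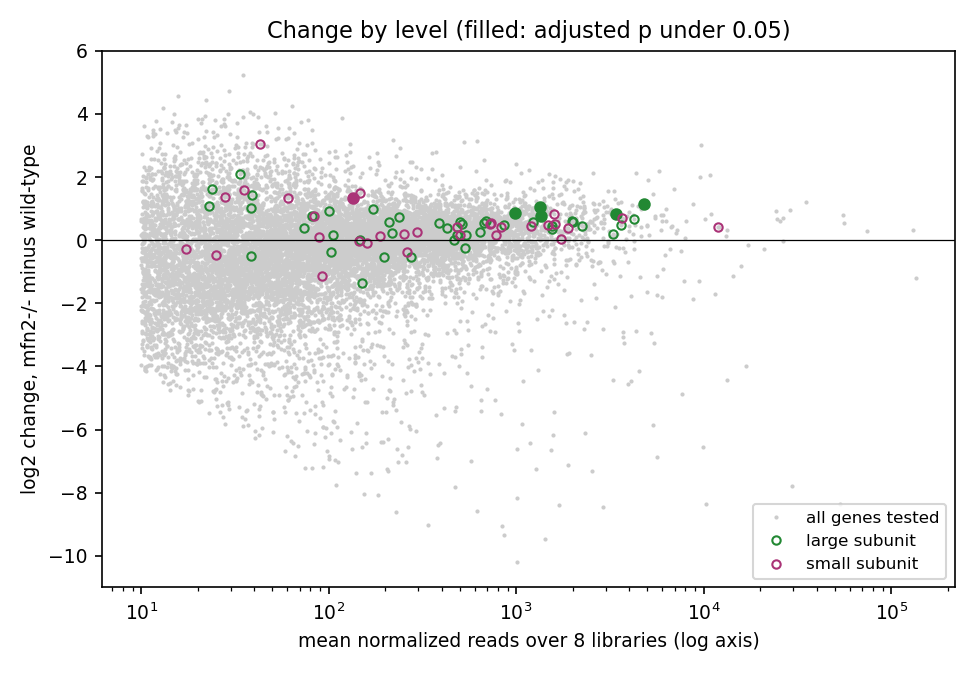
Log2 change of each tested gene, mfn2-/- minus wild-type, against its mean normalized reads (log axis), with all 11754 genes in grey, the 45 large and 31 small subunit genes as open circles and the 6 genes past an adjusted p of 0.05 filled. Above a mean of 500, 34 of 35 ribosomal protein genes lay above 0, and the spread widened in both directions below that level.

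Genes of both subunits had a positive median change. Of 45 large subunit genes tested, 38 had a positive log2 change, 5 were called and the median was 0.53. Of 31 small subunit genes, 25 were positive, 1 was called and the median was 0.41. The SD of the library medians within a genotype was 0.37 on the log2 scale. It includes shifts that both subunits of a library share, so it does not measure the spread of the distance between the subunits. No test between subunits was made. Extremes at both ends came from weak genes. The largest positive change, of Rps21, was 3.03 at a mean of 43.0 normalized reads (adjusted p = 0.145 by limma), and the most negative, of Rpl39, a small protein that lines the exit tunnel, was -1.35 (SE 0.65, adjusted p = 0.224). Rps21 is named after its values were seen. Rpl39 measured 296, 199, 184 and 113 in wild-type replicates 1 to 4 and 69.3, 104, 229 and 16.5 in mfn2-/- replicates 1 to 4, and mfn2-/- replicate 3 lay above 3 of the 4 wild-type libraries.

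The X chromosome carries Rpl10, Rpl36a, Rpl39 and Rps4x, 4 of the 82 genes, which otherwise lie on 18 autosomes. Their 4 values showed no common direction. By limma, Rpl10, needed for subunit joining, had a log2 change of 0.58 (adjusted p = 0.215), Rpl36a of 0.99 (adjusted p = 0.150) and Rps4x of 0.69 (adjusted p = 0.10), beside the negative value of Rpl39.

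The level of these genes also followed the kind of library, and the genotype difference was present in both kinds. Among libraries without Y-linked reads, ribosomal protein genes took 1.77 and 1.77% in wild-type and 2.50 and 2.53% in mfn2-/- ASCs. Among libraries with Y-linked reads they took 1.19 and 1.10% in wild-type and 1.88 and 1.80% in mfn2-/- ASCs. The median log2 change between genotypes was 0.60 in the libraries with and 0.42 in the libraries without Y-linked reads, where all genes had medians of -0.16 and -0.16. Both mfn2-/- libraries were above both wild-type libraries for 48 of 76 genes among libraries with Y-linked reads (against 26.3% of all genes) and for 30 of 76 among those without (against 20.5% of all genes). Fitted alone, with 2 libraries a genotype, the libraries with Y-linked reads gave 28 calls (against 10% of all genes) and those without gave 0 (against 0.315% of all genes). Both mfn2-/- libraries were below both wild-type libraries for 4 (against 35.8% of all genes) and 5 (against 27.1% of all genes). The change was positive in both kinds for 50 of 76 genes, against 25.9% of all genes, and for 28 of the 35 highly counted ones, against 49.4% of highly counted genes.

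Within wild-type ASCs, both libraries without Y-linked reads lay above both libraries with them for 52 of 76 ribosomal protein genes (against 22.2% of all genes), and within mfn2-/- ASCs for 38 of 76 (against 18.8% of all genes). In both genotypes at once this held for 31 of 76 genes, against 4.47% of all genes, and for 20 of the 35 highly counted ones, against 8.56% of highly counted genes. Rplp0, the base of the stalk, and Rps24, a small subunit protein, passed a test of this difference. Rplp0 measured 3879.8, 3816, 2298 and 1930.1 in wild-type replicates 1 to 4 and 1880.2, 2229, 4838 and 5539.7 in mfn2-/- replicates 1 to 4. The libraries without Y-linked reads were high in each genotype, the other 4 were low, and the genotypes overlapped. Rps24 measured 2040.0, 2412, 1437 and 944 in wild-type replicates 1 to 4 and 1285, 949, 2571 and 2302 in mfn2-/- replicates 1 to 4, with the same libraries high and low. With the presence of Y-linked reads as a term in limma, Rplp0 differed by -1.10 on the log2 scale between libraries with and without them (adjusted p = 0.0212) and Rps24 by -1.03 (adjusted p = 0.0468), 2 of the 12 genes (0.102% of all genes tested) that were lower with Y-linked reads, while 0 were among the 0.119% of all genes that were higher. In that fit, 11 of 76 ribosomal protein genes were higher in mfn2-/- ASCs (against 4.93% of all genes), and 0 were lower (against 7.48% of all genes). The 11 included the 5 above, Rpl3 and the X-linked Rpl10 and Rps4x. Among highly counted genes the share was not raised. There, 10 of 35 ribosomal protein genes (28.6%) were called for genotype, against 37.2% of highly counted genes in either direction.

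Other measures moved with the same split. Muscle stem cell markers took 0.311, 0.301, 0.188 and 0.188% of normalized reads in wild-type replicates 1 to 4 and 0.632, 0.648, 0.862 and 0.971% in mfn2-/- replicates 1 to 4. The ribosomal RNA precursor Rn45s took 3.61, 3.03, 2.20 and 2.18% and 2.57, 2.42, 3.78 and 5.99%. Both were highest, within each genotype, in the libraries without Y-linked reads, as ribosomal protein reads were. The ribosomal RNA listed as Rnr2 took 3.42, 3.96, 5.14 and 5.79% in wild-type replicates 1 to 4 and 2.31, 2.24, 2.31 and 1.42% in mfn2-/- replicates 1 to 4. It was lower in every mfn2-/- library than in any wild-type library, and within wild-type ASCs it was highest in the libraries with Y-linked reads, opposite to Rn45s. Fibroadipogenic markers took 4.92 and 4.73% in wild-type libraries without and 6.41 and 6.19% in those with Y-linked reads. The part of these measures in the ribosomal protein difference, and that of the tenocyte and mural cell markers, was not tested. Totals were also set equal after leaving out fibroadipogenic and tenocyte marker genes, collagens and structural RNAs. The median of the 76 genes was then 0.38 against -0.25 for all genes. In that fit 3 of the 76 genes were called higher, beside 366 of all 11754 genes tested.

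**Figure D4:**
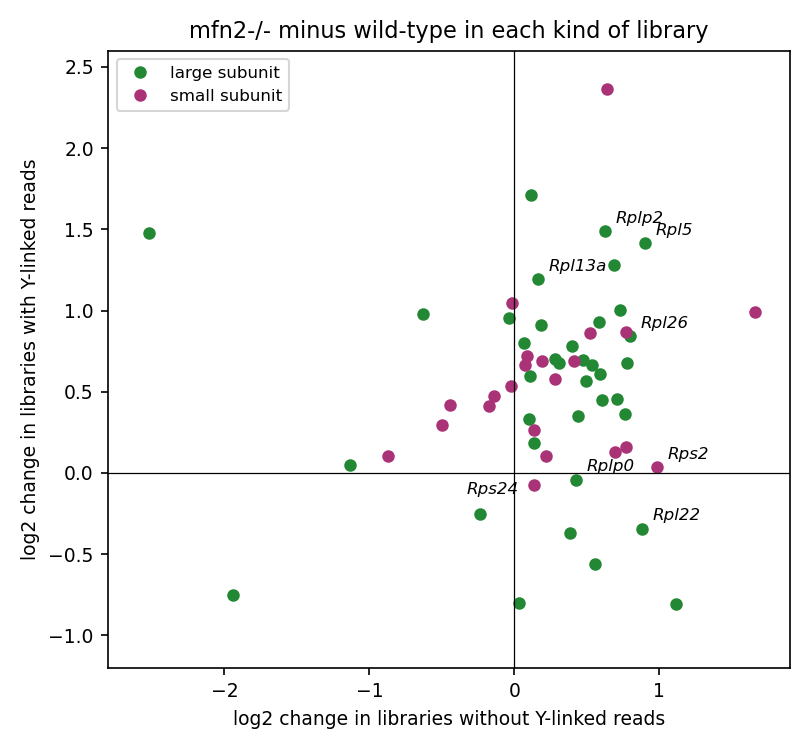
Log2 change, mfn2-/- minus wild-type, of the 59 ribosomal protein genes with a mean of at least 100 normalized reads, in the 4 libraries without (horizontal) and the 4 with Y-linked reads (vertical). Above 0 on both axes lie 39 of 59 genes, and Rpl13a and Rplp2 are higher on the vertical axis. Below 0 on the vertical axis lie 9 genes, from Rpl15 (-0.80) to Rplp0 (-0.04), among them the labelled Rps24 and Rpl22.

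The genotype difference of a gene was not always alike in both kinds. Rpl13a changed by 1.20 on the log2 scale with Y-linked reads and by 0.16 without them, and the interaction of genotype with kind of library was 1.03 (adjusted p = 0.0468 by limma), which made it 1 of 173 genes (1.47% of all tested) and the only ribosomal protein gene past the threshold. Rpl22 changed by -0.34 and 0.88, with an interaction that did not pass (adjusted p = 0.0791 by limma).

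Vertebrates keep second copies of several ribosomal protein genes, some of them tissue specific, and 5 such copies were in the table. Rpl3l, the copy of Rpl3 known from heart and skeletal muscle fibres, measured 0, 3.11, 4.08 and 1.60 in wild-type replicates 1 to 4 and 12.7, 7.90, 14.7 and 0 in mfn2-/- replicates 1 to 4, against 1202 to 3181 for Rpl3. Rpl10l, the testis copy of Rpl10, had 1 read in mfn2-/- replicate 3 and was listed at 0 in the other 7 libraries. Rpl22l1 measured 0, 14.5, 18.8 and 11.8 in wild-type replicates 1 to 4 and 56.0, 20.5, 61.9 and 0 in mfn2-/- replicates 1 to 4, against 460.1 to 1029 for Rpl22. Its 0 values came from the 2 shallowest libraries. Rpl7l1, a relative of Rpl7 that takes part in ribosome assembly, measured 500.3, 677, 537 and 467 in wild-type replicates 1 to 4 and 965, 604, 1084 and 713 in mfn2-/- replicates 1 to 4 (log2 change 0.60, SE 0.23, adjusted p = 0.120 by limma), beside Rpl7 at 1308 ± 317 in wild-type and 1800.0 ± 398 in mfn2-/- ASCs (log2 change 0.46, SE 0.23, adjusted p = 0.234). Rps27l, known as a p53 target, measured 0, 0, 13.1 and 10.2 in wild-type replicates 1 to 4 and 12.0, 15.8, 14.0 and 0 in mfn2-/- replicates 1 to 4, and Rps27 measured 47.8, 20.7, 0 and 4.27 in wild-type replicates 1 to 4 and 39.3, 25.3, 1.47 and 0 in mfn2-/- replicates 1 to 4. For both pairs in which each gene had a mean of at least 10, the log2 ratio of copy to main gene was compared. The ratio of Rpl7l1 to Rpl7 was -1.24 ± 0.35 in wild-type and -1.10 ± 0.47 in mfn2-/- ASCs (SD, n = 4; two-sided exact permutation p = 0.600, adjusted over 2 pairs 0.600). That of Rpl22l1 to Rpl22 was -6.15 ± 1.97 and -5.34 ± 3.05 (exact permutation p = 0.543, adjusted 0.600). Neither difference was larger than the spread between libraries.

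Levels within the family spanned a wide range, although each protein enters the ribosome in a fixed number of copies. Per kb of transcript, the mean level over 8 libraries was highest for Rpl26 (6514 normalized reads per kb), Rpsa (6167), Rpl13a (4044), Rps4x (3782) and Rplp1 (3095), which were also the first 5 in each genotype, with Rpsa ahead of Rpl26 in wild-type ASCs. Rpl26 was at 4681 per kb in wild-type and 8346 in mfn2-/- ASCs, and Rpl5 moved from rank 13 in wild-type to rank 6 in mfn2-/- ASCs. At the low end, Rpl11, Rpl24 and Rpl37, large subunit proteins of every ribosome, measured 7.71, 11.4 and 5.65 normalized reads per kb. Rpl11 measured 0, 0, 9.80 and 10.7 in wild-type replicates 1 to 4 and 0, 4.74, 20.6 and 5.50 in mfn2-/- replicates 1 to 4. Rpl24 measured 0, 0, 8.17 and 16.6 in wild-type replicates 1 to 4 and 12.7, 7.11, 16.9 and 0 in mfn2-/- replicates 1 to 4, and Rpl37 0, 0, 6.53 and 2.14 in wild-type replicates 1 to 4 and 2.00, 7.90, 19.2 and 0 in mfn2-/- replicates 1 to 4. A total of 17 genes were listed at 0 in at least 1 library, including Rps6, the target of the S6 kinases, which was at 0 in mfn2-/- replicate 4 and measured 85.3, 232 and 87.0 in mfn2-/- replicates 1 to 3. A value of 0 for a protein that every cell uses says only how the gene is listed.

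Ribosomal protein genes are known for their many processed pseudogenes, and much of their sequence recurs in other genes. For 1 protein-coding GENCODE M21 transcript of each gene, the lowest-numbered one marked as a principal isoform where any was, the share of 50-base windows that also occur in a transcript of another gene was 49.2% in the median, against 0% for 113 other genes of the translation machinery. Rpl3l held 0% shared windows, 40 genes had at least 50% shared, and Rps27 had the most (98.6%). Shared sequence and level per kb were hardly related (Spearman rho 0.08 over 82 genes, -0.02 over the 77 without copies), a description across genes of the same 8 libraries. How reads that match several places were counted is not given in the sources used here. The median log2 change was positive at each level of shared sequence, at 0.60 for the 5 tested genes under 10% shared, 0.39 for 33 genes from 10 to 50% and 0.55 for 38 genes at 50% or more. Of the called genes, Rpl8 had 7.86% of its windows shared. The introns or exons of 30 genes also hold a small nucleolar RNA gene, among them Rpl5 with 3, and reads of such RNAs were not separated here.

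**Figure D5:**
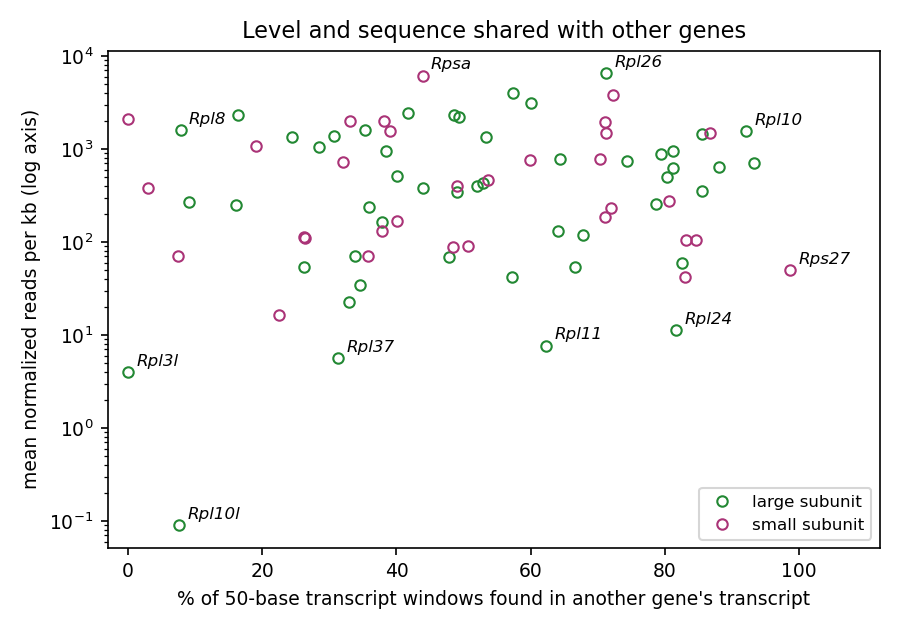
Mean normalized reads per kb (log axis) of the 82 genes against the share of 50-base windows of their transcript found in another gene's transcript, with colour for the subunit. Rpl8 with 7.86% and Rpl10 with 92.1% shared reached 1592 and 1548 reads per kb, and the 5 lowest genes lay at shares from 0 to 81.7%.

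The rest of the translation machinery was described from 6 lists with 113 genes, all of which were tested. Of these, 16 (14.2%, against 3.99% of all genes) were higher in mfn2-/- ASCs by limma and 0 were lower (2 at an unadjusted p under 0.05, 1 each by edgeR and DESeq2), and 89 had a positive change, with a median of 0.46. Leaving out wild-type replicates 1 to 4 in turn gave 9, 11, 4 and 5 calls, and leaving out mfn2-/- replicates 1 to 4 gave 10, 9, 6 and 10. These fits called 235 to 470 of all 11754 genes higher. In the fit of all 8 libraries, 19.2% of the 1531 genes with a mean of at least 500 were called higher. The list genes were not split by level, so 14.2% has no share at a like level beside it. Among 15 elongation factors and other TOP transcripts, whose mRNAs start like those of ribosomal proteins, 1 was called, and the median was 0.41. That gene was Tpt1, the translationally controlled tumor protein, with 7997 ± 2065 in wild-type and 13862 ± 978 in mfn2-/- ASCs (log2 change 0.83, SE 0.22, adjusted p = 0.0317). The elongation factors Eef1a1 (log2 change 0.32, SE 0.25, adjusted p = 0.460) and Eef2 (log2 change 0.41, SE 0.24, adjusted p = 0.316) did not pass. Of 4 further genes of the cytosolic ribosome, Fau, which encodes a small subunit protein fused to a ubiquitin-like one, passed (913 ± 109 in wild-type and 1595 ± 444 in mfn2-/- ASCs; log2 change 0.77, SE 0.22, adjusted p = 0.0378), and Gnb2l1, the scaffold Rack1, did not (log2 change 0.23, adjusted p = 0.596).

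Translation initiation factors had 5 of 25 genes called and a median of 0.52. Eif4a1, the helicase that unwinds mRNA leaders, had 3092 ± 812 in wild-type and 6198 ± 1622 in mfn2-/- ASCs (log2 change 1.00, SE 0.24, adjusted p = 0.0184 by limma). Eif1, Eif5b, Eif5 and Eif3a, which act in start codon choice and subunit joining, had log2 changes of 0.86, 0.88, 0.81 and 0.57 (adjusted p = 0.0205, 0.0444, 0.0483 and 0.0483 by limma), and Eif4g2 did not pass (log2 change 0.44, adjusted p = 0.111). Ribosome biogenesis factors had 7 of 40 genes called and a median of 0.51. Nop58, a core protein of box C/D snoRNPs, showed the strongest change of the lists with 769 ± 243 in wild-type and 2382 ± 641 in mfn2-/- ASCs (log2 change 1.64, SE 0.26, adjusted p = 0.00135). On the log2 scale Gnl3, or nucleostemin, changed by 1.18, the small subunit assembly factors Ltv1 and Nop14 by 1.22 and 1.02, the helicase Ddx21 by 1.01 and nucleolin, Ncl, by 0.81 (adjusted p = 0.00628, 0.0137, 0.0140, 0.0197 and 0.0457 by limma). Of 15 RNA polymerase I genes, 2 were called with a list median of 0.31. These were Rrn3 (log2 change 1.10, SE 0.31, adjusted p = 0.0368) and Taf1d (log2 change 0.86, SE 0.23, adjusted p = 0.0300), both parts of the initiation apparatus, while the large catalytic subunit Polr1a had a log2 change of 0.31 (adjusted p = 0.409). None of 14 regulators of ribosomal protein mRNAs was called by limma (1 higher and 2 lower at an unadjusted p under 0.05, 0 higher and 1 lower by edgeR, 1 higher and 1 lower by DESeq2), Larp1 having a log2 change of 0.26 (adjusted p = 0.521) and Sp1 of 0.69 (adjusted p = 0.0526). Several called list genes also hold small nucleolar RNA genes, with 8 in Taf1d, 4 in Nop58 and 3 each in Gnl3, Ncl and Eif4a1. Reads of such RNAs were not separated from those of the list genes.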

How the data were processed

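Libraries were prepared from total RNA with the SMARTer stranded pico kit. According to the submitters' processing notes, Trim Galore, HISAT2, featureCounts and DESeq2 were used with mouse build mm9. The values that the authors deposited are a linear signal, reads divided by the size factor of the library. All values (100%, tolerance 0.01) were whole multiples of 1 step per library, so whole reads were recovered (value of 1 read 0.534 to 2.27). Counting error is largest in wild-type replicate 1 and mfn2-/- replicate 4, and copies made by amplification were not separated.

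Genes with a mean of at least 10 (11754) were tested with limma 3.58.1 (R 4.3.3) on log2(value + 1), intensity trend, no covariate, two-sided, Benjamini-Hochberg threshold 0.05. Adding 1 narrows ratios of small values, but a value of 0 in 1 library can also enlarge or reverse the change of a weak gene. Rps12, at 0 in wild-type replicate 1, had a log2 change of 1.33 with a ratio of means of 0.91. Rps6, at 0 in mfn2-/- replicate 4, had -1.13 with a ratio of 1.22. Both examples were picked after their values were seen. Counts of positive changes were taken on this scale. Recovered reads were tested with edgeR 4.0.16 and DESeq2 1.42.0. Other scalings, pseudocounts, filters, a replicate block and left-out libraries were alternatives. Ratios and Mfn2 used exact permutation tests over 70 arrangements. The tests were checked on simulated data. Of the symbols, 17846 (94.5%) and all 82 members matched GENCODE M21. Its coordinates (GRCm38) are printed, since the table has none.

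The members and lists were chosen with earlier results of these data known. The interaction with Y-linked reads, the mean of at least 500, the groups by shared sequence and the fit without the 2 shallowest libraries were chosen after seeing the data. Genes named were those past the threshold, the 5 of each subunit with the most reads, paralog pairs, X-linked genes, genes under the filter and, per list, up to 6 called and the 2 with the most reads. Some genes that this rule selects are not reported here.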

Additional observations from a re-analysis of the deposited data

Results flagged for a closer look

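Of 61 groups of 4 values compared within a genotype, 2 held a value far from the other 3, and about 3 would by chance. Rplp2 in wild-type replicate 1 was at 639 normalized reads, below the 869 to 915 of the other 3 wild-type libraries. Without that library the log2 change of Rplp2 was 0.94 (adjusted p = 0.0889 by limma). Rpl10l in mfn2-/- replicate 3 was at 0.737 normalized reads, which is 1 read, and was listed at 0 in the other 3.

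The genotype difference of Rpl13a was larger in libraries with than in libraries without Y-linked reads, by 1.03 on the log2 scale (limma interaction, adjusted p = 0.0468), with 2 libraries of each genotype in each kind.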

How the results depend on the processing

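The median log2 change stayed positive in all 25 alternatives, between 0.41 and 0.74 for the large and between 0.22 and 0.62 for the small subunit, and 0 ribosomal protein genes were called lower in any of them. The count of 6 called higher, beside 469 of all 11754 genes, became 2 without a filter, beside 340 of 18877. For the other settings, the count among all 11754 genes is in parentheses. It was 13 with upper-quartile scaling (845) and 3 with totals set equal after leaving out matrix and structural RNA genes (366). With Y-linked reads as a term it was 11 (580). In the libraries with and without Y-linked reads alone it was 28 (1178) and 0 (37). It was 1 without an intensity trend (113), 27 with library weights (1398) and 1 to 3 with a library left out (235 to 470). Of the called genes with a mean of at least 500, Rpl5 passed in 23 of 25 alternatives, Rplp2 in 17, Rpl6 in 13, Rpl26 in 12 and Rpl8 in 10. Upper-quartile scaling moved the median of all genes by 0.20 and quantile normalization by 0.23, and the 76 genes stayed 0.65 and 0.37 above it. The log2 change of Rps24, which was not called, turned negative with quantile normalization (-0.076), the reduced totals (-0.069), library weights (-0.083), the libraries with Y-linked reads alone (-0.077) and without the 2 shallowest libraries (-0.021, chosen after seeing the data), and ranged from -0.23 to 0.29 with a library left out. That of Rplp0 was -0.041 in the libraries with Y-linked reads alone and -0.062 to 0.46 with a library left out, that of Rpl22 was -0.34 in the libraries with Y-linked reads alone and -0.10 with library weights, and that of Rpl7 was -0.034 in the libraries without Y-linked reads alone. With a library left out, the log2 ratio difference ranged from -0.035 to 0.36 for Rpl7l1 to Rpl7 and from -0.17 to 2.30 for Rpl22l1 to Rpl22. Pathway list genes called higher numbered 4 to 11 with a library left out, and those called lower 0 to 1, with 1 also under quantile normalization and 1 by edgeR. Apart from fits with fewer libraries, the cause of these shifts was not tested.

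Replicate numbers did not pair the samples (correlation of deviations -0.11 to 0.04 for the 4 numbers). With the replicate block, 3 ribosomal protein genes and 13 pathway list genes were called higher, beside 434 of all 11754 genes. With 4 pairs, sign flips cannot give a p under 0.125. Weak genes were limited by depth, since 1 read was worth up to 2.27 normalized reads and 17 genes were at 0 in at least 1 library.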
